A study of Rattus norvegicus with 8 samples.

Results

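Mural cells are the pericytes and smooth muscle cells that wrap capillaries, arterioles and venules. In these nodose ganglia of the rat they were sought as nuclei with at least 1 unique molecular identifier (UMI, 1 counted transcript) of at least 2 of the 4 genes Pdgfrb, Notch3, Abcc9 and Rgs5. Such nuclei also had to hold 0 UMIs of the endothelial genes Pecam1 and Cdh5, and at most 2 UMIs of the neuronal genes Scn10a and Slc17a6 together. The rule found 346 nuclei among 36741, and these are called mural-marker nuclei here because only some of them carried the rest of a mural transcriptome, as described below.

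The nodose ganglion holds the cell bodies of vagal sensory neurons. The nuclei came from untreated, experimentally naïve Long Evans rats aged 8 weeks, 18 labelled male and 18 labelled female, whose left and right ganglia were kept apart. Ganglia of 1 side from 6 rats made 1 pool, and there were 3 pools each of male left (ML1 to ML3), male right (MR1 to MR3), female left (FL1 to FL3) and female right (FR1 to FR3). A pool is the replicate. With these numbers the left and right pools of a sex draw on the same rats, so they are not independent animals, and no single rat can be followed. The 8 sequenced sublibraries each held nuclei of all pools.

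Pericytes sit inside the capillary basement membrane, and smooth muscle cells form the wall of larger vessels. Endothelial platelet-derived growth factor B recruits both through the receptor Pdgfrb, and Notch3, activated by endothelial Jagged1, maintains them. Abcc9 is the sulphonylurea receptor subunit that with Kcnj8 forms an ATP-sensitive potassium channel, and Rgs5 is a regulator of G protein signalling. Contraction rests on smooth muscle actin and myosin, calcium entry and myosin light chain kinase, and nitric oxide relaxes the cells through soluble guanylate cyclase and cyclic GMP. Sensory ganglia are densely vascularised, and their vessels are more permeable than those of the brain.

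Pools gave 1738 (FL2) to 4849 (FR3) nuclei and 8 (FL3) to 82 (FR2) mural-marker nuclei. A mural-marker nucleus held a median of 2124.5 UMIs, against 2684 in all others, and the median lay between 1677 and 3935 by pool. Across sublibraries 3808 nuclei shared a combination of wells with another nucleus, 44 of them mural-marker nuclei, but no pair of mural-marker nuclei did. Pools labelled ML1 and FL1 went against their sex labels. The Y-linked genes Kdm5d and Eif2s3y together stood at 2.13 CPM (UMIs per 1000000 UMIs of the nuclei summed) in ML1 against 83.4 to 90.7 in the other male-labelled pools, and at 87.9 CPM in FL1 against 1.51 to 3.12 in the other female-labelled pools. Comparisons by sex or side are therefore given with and without both pools, and sex is named only as a label.

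The smooth muscle actin gene Acta2 led the genes outside the rule, with smooth muscle myosin Myh11 next, so the regulatory sequence of the contractile genes is shown first. Contractile genes are classically driven by serum response factor, which binds the CArG box. The promoter stretches are from RefSeq (GRCr8) and are shown because they are the contractile genes whose 250 bases before the start held such a box, with its letters in capitals. The window of Acta2, chr1:241172563-241172652 on the minus strand, holds boxes that begin 134 and 84 bases before the start. That of Ldb3, a Z-disc protein gene, is chr16:9924707-9924746 on the minus strand, with a box beginning 52 bases before the start.

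Acta2: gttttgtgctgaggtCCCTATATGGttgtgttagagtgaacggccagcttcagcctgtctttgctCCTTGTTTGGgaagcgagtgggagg

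Ldb3: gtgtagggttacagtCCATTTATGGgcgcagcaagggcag

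Of 17 contractile genes listed, 12 had a promoter in the RefSeq table. With at most 1 G or C allowed among the middle 6 bases, 2 of the 12 (16.7%) held a CArG box, against 2703 of 33469 promoters of the same length (8.08%). Without that allowance 1 of 12 (8.33%) did, against 501 (1.5%). The pattern reads the same on both strands, so 1 search covers both. A match is a description of letters and not of binding, and the other 10 promoters lack only these letters in this window.

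The values of the rule genes describe how the nuclei were chosen and support nothing else. Pdgfrb was detected in 221 mural-marker nuclei (63.9%), Abcc9 in 219 (63.3%), Notch3 in 201 (58.1%) and Rgs5 in 157 (45.4%). Detection was thin. Exactly 1 UMI was held by 172 of the nuclei with Pdgfrb, 169 with Abcc9, 145 with Notch3 and 100 with Rgs5. Just inside the threshold, 260 nuclei had 2 of the markers, while 66 had 3 and 20 had all 4. Just outside it, 2271 nuclei met the other limits with 1 marker. Of 1220 nuclei with 2 or more markers, 362 were turned away for Pecam1 or Cdh5 alone, 403 for neuronal UMIs alone and 109 for both. When each nucleus was thinned to 1000 UMIs, 135 of the 323 mural-marker nuclei deep enough still met the rule, and 71 other nuclei newly met it.

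Mural markers and the excluded endothelial genes were found together more often as the number of mural markers increased. Among nuclei within the neuronal limit, Pecam1 or Cdh5 was detected in 4.03% of the 15870 with 0 mural markers. The share was 10.1% with 1 marker, 40.5% with 2, 63.7% with 3 and 77.5% with all 4. Median depth in these nuclei was 1719 UMIs with 0 markers and 3030 with 4. After thinning to 1000 UMIs the shares were 2.05%, 9.29%, 34.3%, 40.6% and 40.0%. The last 2 rest on 64 and 15 nuclei, and there was no rise from 3 to 4 markers. The rule therefore discards most nuclei that carry 3 or 4 of its own markers. What sets this co-detection was not tested.

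**Figure D1:**
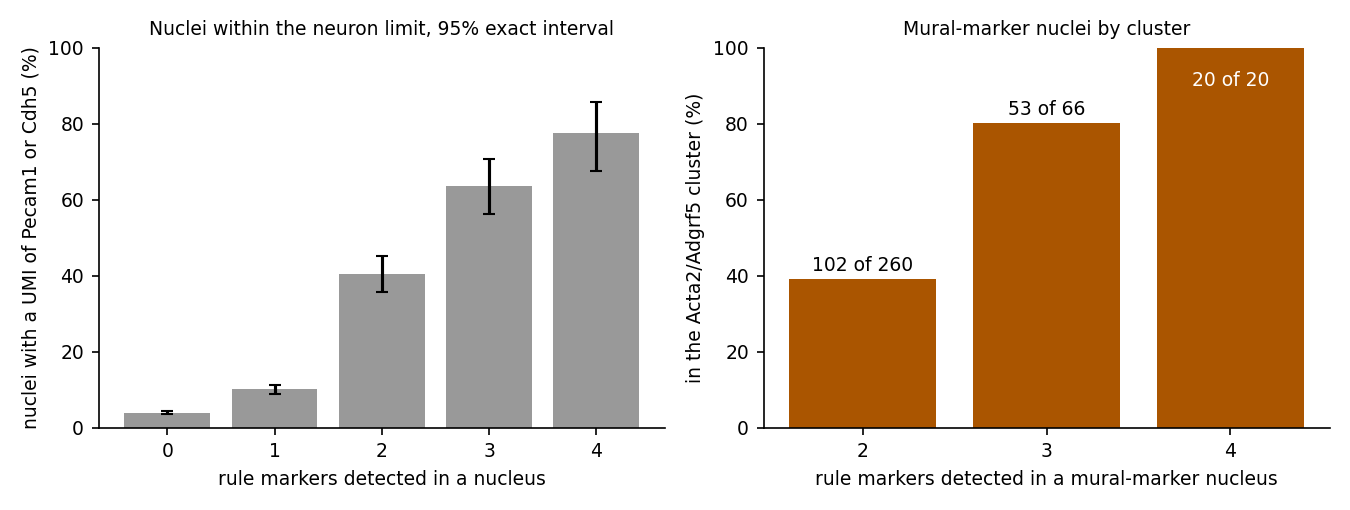
Nuclei by the number of mural markers detected: the share with a UMI of Pecam1 or Cdh5 among nuclei within the neuronal limit, and the share of mural-marker nuclei in the Acta2/Adgrf5 cluster, both in percent (bars on the first panel are exact 95% intervals). Pecam1 or Cdh5 detection goes from 4.03% with 0 markers to 77.5% with 4, and cluster membership from 39.2% with 2 markers to 100% with 4.

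Clustering of all nuclei on 3000 genes placed 175 mural-marker nuclei (50.6%) in a cluster of 1091 nuclei led by Adgrf5, Acta2, Adgrl4, Myh11, Cyyr1 and Abcg2. This Acta2/Adgrf5 cluster mixes smooth muscle and endothelial genes, and so is given no cell type name. It was picked as the cluster with the highest level of the 4 rule markers, which were not kept out of the clustering. It took 102 of 260 nuclei with 2 markers (39.2%), 53 of 66 with 3 (80.3%) and 20 of 20 with 4. That rise is partly built in by the choice of cluster and supports nothing else. The other mural-marker nuclei fell elsewhere. A cluster led by Apoe, Tyrp1 and Fbln2 held 52 of them, 1 led by the myelin gene Prx held 34, and a fast muscle cluster led by Myh4 and Ttn held 10.

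Which markers were paired went with cluster, a description only, since the cluster was picked by the level of these same markers. The most frequent pair, Pdgfrb with Abcc9, made up 69 nuclei, of which 15.9% were in the Acta2/Adgrf5 cluster. Pdgfrb with Notch3 made up 63 nuclei (30.2%) and Notch3 with Abcc9 40 (50%). Abcc9 with Rgs5 made up 35 nuclei, of which 74.3% were in the cluster. The triple of Notch3, Abcc9 and Rgs5 reached 95.7% of 23 nuclei. Myosin heavy chain Myh11 stood at 171 CPM in the Pdgfrb and Abcc9 pair, 1799 CPM in that triple and 1351 CPM with all 4 markers. Pairs that included Rgs5 were thus mostly in the cluster, except Pdgfrb with Rgs5, at 42.3% of 26 nuclei.

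By the summed level of each list, smooth muscle contractile genes stood at 3019 CPM in mural-marker nuclei against 1121 CPM in all other nuclei, and were higher in 12 of 12 pools. Pericyte markers outside the rule stood at 1389 against 478 CPM, also higher in 12 pools. Much of that sum was Cald1 alone, at 489 CPM (FR1) to 917 CPM (FR3) by pool. The sum therefore does not show that pericyte markers were raised as a group. Within the Acta2/Adgrf5 cluster the contractile list reached 5587 CPM and the pericyte list 2333 CPM, while mural-marker nuclei outside it had 1584 and 862 CPM. These clusters were formed on 3000 variable genes, from which the list genes were not kept out, so the split describes and does not test.

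Markers of other cells also differed between mural-marker nuclei and all other nuclei. The rule limits neuronal UMIs, while nuclei above that limit held 95630896 of the 138891157 UMIs of all other nuclei. Genes low in neurons are thus diluted in that set, here and in every comparison with all other nuclei. How much of the differences this makes was not tested. The satellite glia list, glial cells that wrap neuron bodies, stood at 2271 CPM against 769, the myelinating Schwann cell list at 2274 against 984 and the fibroblast list at 2146 against 760. Neuronal genes were at 5815 CPM against 8913. The endothelial list, which leaves out the excluded Pecam1 and Cdh5, stood at 801 CPM against 143, ranged from 378 to 1200 CPM by pool and was higher in 12 pools. All 8 measured genes of that list were at least 2-fold higher, Flt1 and Cldn5 having no entry by symbol. The skeletal muscle list stood at 1810 against 740 CPM and ranged from 70.3 CPM to 8234 CPM (FR2) by pool. Its gene Ttn was above the other nuclei of the same pool only in FR2 and ML2. It stood at 5231 against 2233 CPM in FR2, from 1059 UMIs, and at 193 against 182 CPM in ML2. Inside the cluster the endothelial list was at 2021 CPM and outside it at 119. Macrophage genes were at 53.1 CPM, with the complement genes C1qa and C1qb at 0, and 5 of the 6 T or NK cell genes were at 0. The part of these other markers in the results below was not tested.

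**Figure D2:**
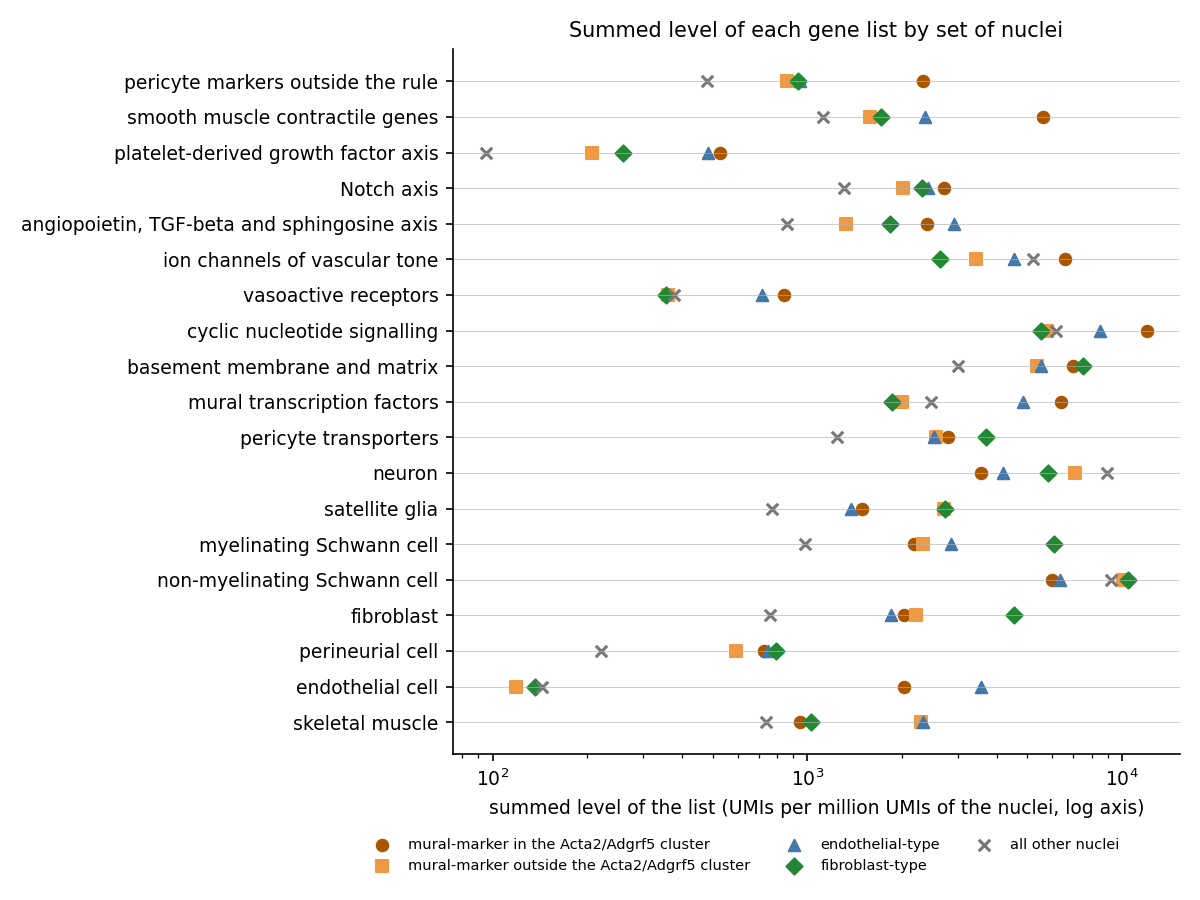
Summed level of each gene list in CPM, on a log axis, for the mural-marker nuclei inside and outside the Acta2/Adgrf5 cluster, for endothelial-type and fibroblast-type nuclei and for all other nuclei. Contractile genes stand at 5587 CPM inside the cluster and 1584 CPM outside it, and satellite glia genes at 1491 and 2707 CPM.

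The gene-by-gene comparison with all other nuclei is a description, since the rule defined it. Of 7980 genes at 20 CPM or more in either set, 11.1% were at least 2-fold higher in mural-marker nuclei and 4.26% at least 2-fold lower (ratios with a pseudocount of 5 CPM), and nothing is read from a list's count against that share. Acta2 led, at 14.1-fold. It ranged from 92.1 CPM (MR1) through a median of 153 to 330 CPM (FL2), and was detected in 22.5% of mural-marker nuclei against 1.38% of the others and 0.856% of neuronal nuclei. Every pool lay far above its own other nuclei, which held at most 14.4 CPM. Among the 20 leading genes were also the GTPase-activating protein gene Arhgap6 (9.95-fold), the adhesion receptor Adgrf5 (9.01-fold) and Lef1 and Filip1l, and the last of the 20 was the endothelial transcription factor gene Fli1 (6.41-fold).

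Nearly every readable contractile gene was higher, 12 of 13 past the floor by at least 2-fold, of 16 measured, with a median log2 ratio of 1.89. Myh11, the smooth muscle myosin heavy chain, ranged from 70.3 CPM (FL3) through a median of 501 to 1347 CPM (FL2). Its level over all mural-marker nuclei was 594.9 CPM against 47.0 (11.5-fold), and it was detected in 27.2% of them, 8.97% of the others and 11.5% of neuronal nuclei. The pools thus differed widely in Myh11 though all were above their other nuclei. Mylk, the myosin light chain kinase, stood at 189 against 13.8 CPM and Lmod1, leiomodin, at 54.0 against 7.0 CPM. Tagln, the actin-binding transgelin, ranged from 0 to 127 CPM by pool. Synpo2 was at 185 against 35.6 CPM, the intermediate filament gene Des at 24.2 against 3.2, and Cnn1, calponin, was listed with 0 UMIs.

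Pericyte markers were less uniform. At least 2-fold higher were 4 of 6 past the floor, of 11 measured: Cald1, Cspg4, Steap4 and Art3. Cald1, the actin-binding caldesmon, ranged from 489 CPM (FR1) through 848 to 917 CPM (FR3), and Cspg4, the NG2 proteoglycan, from 35.1 CPM (FL3) through 55.7 to 102 CPM (FL2). Both were above the other nuclei in each pool. Kcnj8, the potassium channel pore that partners Abcc9, gave only 8 UMIs in 8 mural-marker nuclei, 4 of them in FL1, and the brain pericyte gene Atp13a5 gave 0. Kcnj8 was thus too low to order the pools.

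Gucy1a1 and Irag1, which act in nitric oxide and cyclic GMP signalling, were among the 20 leading genes. Gucy1a1, a soluble guanylate cyclase subunit that senses nitric oxide, ranged from 44.4 CPM (FR1) through 185 to 330 CPM (FL2). Its partner Gucy1b1 stood at 52.1 against 3.9 CPM in the other nuclei. Irag1, which links cyclic GMP kinase to calcium release, ran from 70.3 CPM (FL3) to 374 CPM (ML3), with 178 against 12.1 CPM overall. Phosphodiesterases Pde3a and Pde5a, which degrade cyclic nucleotides, stood at 490 against 99.3 and 68.9 against 10.8 CPM. Across the cyclic nucleotide signalling list 7 of 21 genes were at least 2-fold higher and 2 lower, with a median log2 ratio of 0.21 beside 0.13 over all genes. The list as a whole thus lay close to the median gene, and the genes named here were chosen from its higher members.

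Ion channels of vascular tone did not move as a group, with 3 of 17 at least 2-fold higher and 2 lower. Ano1, a calcium-activated chloride channel that depolarises smooth muscle, ranged from 59.8 CPM (MR2) through 134 to 197 CPM (ML3). Its level was 10.9 CPM in other nuclei, so each pool was above. Cacnb2, an L-type calcium channel subunit, stood at 331 against 103 CPM. The pore subunit Cacna1c stood at 862 against 744 and the potassium channel Kcnma1 at 416 against 885 CPM, genes that neurons also use.

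Receptors for vasoactive signals were mostly too low to read, with 7 of 32 measured past the floor. Ednrb, an endothelin receptor that satellite glia also express, stood at 94 against 26.5 CPM, and Calcrl, the calcitonin gene-related peptide receptor gene also found in endothelium, at 81.0 against 13.1. Ednra, the endothelin receptor of smooth muscle, stood at 95.9 against 49.5 CPM, and was at 234 CPM inside the Acta2/Adgrf5 cluster and 18.9 outside it. Htr2a was the 1 receptor past the floor that was at least 2-fold lower. The neuropeptide Y receptor Npy1r, at 14.9 against 5.1 CPM, lay under the floor of 20 CPM and is not read.

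Genes of both partners, endothelium and mural cells, were present. In the platelet-derived growth factor axis 1 of 3 genes past the floor was at least 2-fold higher: Pdgfd, a ligand of Pdgfrb, at 230 against 53.9 CPM. The endothelial ligand Pdgfb, at 14.9 against 5.1 CPM, lay under the floor. In the Notch axis 6 of 10 genes past the floor were at least 2-fold higher, among them the ligand Jag1 (202 against 49.6 CPM) and the targets Heyl (48.4 against 12.9) and Hey2 (59.6 against 22). Endothelial Notch4 was at 21.4 against 3.0 CPM. In the angiopoietin, TGF-beta and sphingosine axis 8 of 14 genes were at least 2-fold higher. Angpt2 and its receptor Tek, which steady or loosen the vessel wall, stood at 65.2 against 13.6 and 99.6 against 19.0 CPM. Genes usually assigned to endothelium therefore stood higher beside mural ones although Pecam1 and Cdh5 were required to be 0.

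Basement membrane and matrix genes were at least 2-fold higher for 13 of 21 past the floor. Laminin Lamc3 stood at 81.0 against 4.2 CPM, integrin Itga1 at 207 against 38.8 and Itga8 at 46.5 against 5.8, while the common collagen Col4a1 was level at 450 against 458. Of mural transcription factors 12 of 14 were at least 2-fold higher. Prrx1, a mesenchymal homeobox factor, stood at 133 against 9.35 CPM, the RNA-binding smooth muscle protein gene Rbpms at 279 against 34.0 and Epas1, a hypoxia factor, at 332 against 55.6. Myocd, the coactivator that drives contractile genes, was at 39.1 against 13. Ebf1, a mural factor that other lineages also use, was at 1973 against 2064. Of pericyte transporters 4 of 6 past the floor were at least 2-fold higher, with Slco1a4 at 186 against 21.2 CPM. Abcg2, a drug efflux pump of barrier vessels, stood at 237 against 24.1 CPM.

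**Figure D3:**
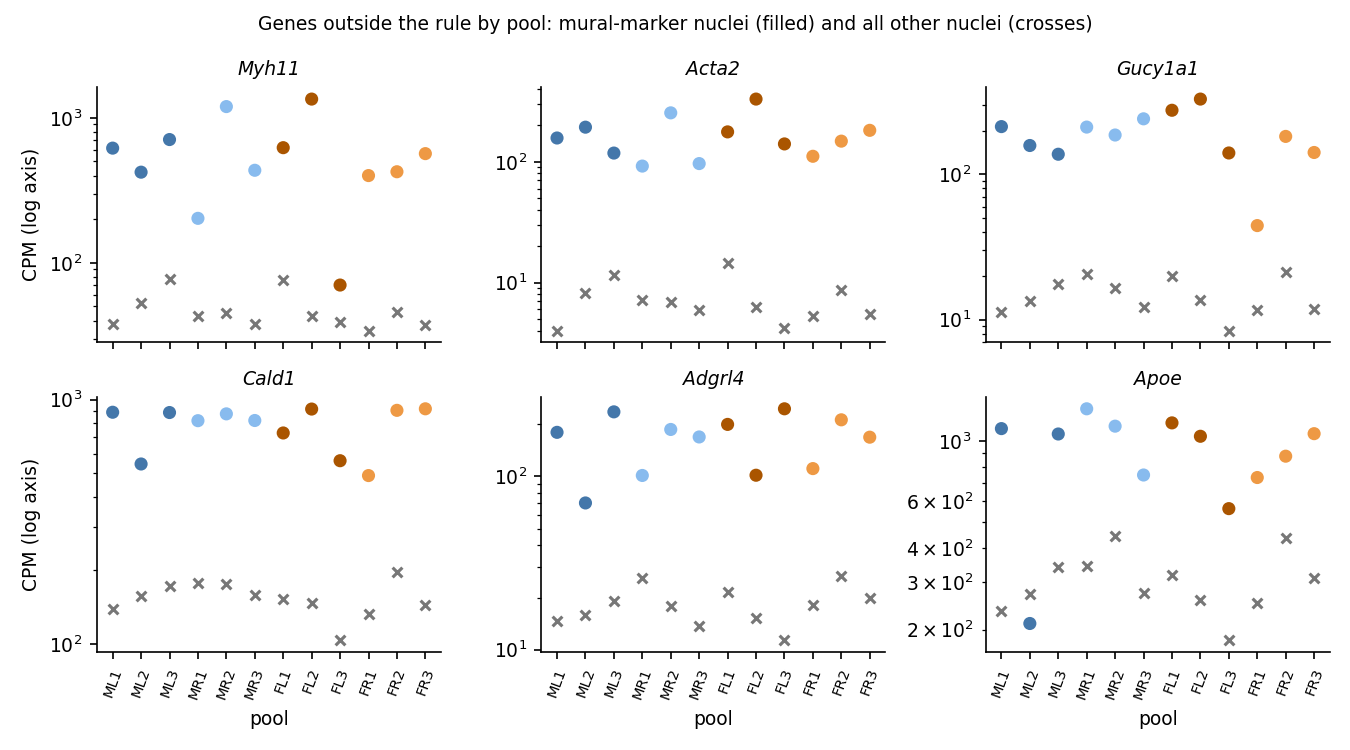
Level in CPM (log axis) of Myh11, Acta2, Gucy1a1, Cald1, Adgrl4 and Apoe by pool, in mural-marker nuclei (filled circles, coloured by sex label and side) and in all other nuclei of the same pool (crosses). Acta2 lies between 92.1 and 330 CPM in the mural-marker nuclei and at most at 14.4 CPM in the others, and Apoe in ML2, at 211 CPM, is the only filled circle below its cross.

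A contractile subset could be drawn within the mural-marker nuclei. The division rests on 8 core contractile genes (Acta2, Myh11, Tagln, Cnn1, Lmod1, Casq2, Actg2 and Map3k7cl), was chosen after levels were seen, and gets no test. At least 2 of the 8 were detected in 70 nuclei (median 1775 UMIs), 1 in 66 nuclei (1649 UMIs) and 0 in 210 nuclei (2728.5 UMIs), so the contractile nuclei were not the deeper ones. By pool the subset was 7.69% (FR1) to 30% (FL2) of mural-marker nuclei. Myh11 itself was uneven: 10 nuclei held 53.5% of its 639 UMIs, up to 78 in 1 nucleus.

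Genes outside the core list marked the contractile nuclei. Elastin, Eln, the elastic fibre protein of arterial walls, stood at 236 CPM against 2.72 in nuclei with 0 core genes, and the neurotrophin Ntf3 at 236 against 1.36. Fmod, a collagen-binding proteoglycan, stood at 177 against 1.36 CPM, and the regulatory myosin light chain Myl9 at 158 against 1.36. Slit3, a guidance ligand, stood at 3876 against 204 and Cdh13, T-cadherin, at 2529 against 171 CPM. Myocd stood at 184 against 8.15 and Gucy1a1 at 887 against 59.8 CPM. Lower in the contractile nuclei were Galnt14 (0 against 160 CPM) and Lgr5 (92.0 against 683). The values place elastin and myosin regulators with the contractile nuclei.

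Detection by nucleus restates this division, since Myh11, Acta2 and Lmod1 are core genes and Ntf3 and Gucy1a1 were picked from the same contrast. Acta2 was detected in 55.3% of the 94 mural-marker nuclei with Myh11 and 10.3% of the 252 without it. The corresponding shares were 33.0% and 2.38% for Lmod1, 62.8% and 18.3% for Gucy1a1, and 29.8% and 1.59% for Ntf3. Of endothelial genes, which the division did not use, Emcn was detected in 24.5% and 21.8% and Adgrl4 in 39.4% and 23.0%.

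The design crosses side with sex, which asks whether the left and right ganglia or the 2 sex labels differ. The share of nuclei that met the rule was 0.839%, 0.898% and 0.887% in ML1 to ML3, and 1.03%, 0.845% and 0.598% in MR1 to MR3. It was 1.14%, 0.575% and 0.363% in FL1 to FL3, and 0.595%, 1.80% and 0.907% in FR1 to FR3. FR2 stood highest (exact 95% binomial interval 1.43 to 2.23%) and FL3 lowest (0.157 to 0.714%), intervals that cover counting error only, and the groups overlapped throughout. Right pools averaged 0.962% ± 0.445 and left pools 0.783% ± 0.273 (SD, n = 6 each), a difference of 0.179 percentage points (exact permutation, two-sided p = 0.52, adjusted 0.959 over 11 measures). Without ML1 and FL1 the difference was 0.281 points (exact permutation p = 0.41), and without FR2 0.0113 (exact permutation p = 0.955).

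By sex label the share was 0.896% ± 0.520 in female-labelled and 0.849% ± 0.141 in male-labelled pools (SD, n = 6 each), a difference of 0.0469 points (exact permutation p = 0.885). It was -0.00348 without ML1 and FL1 (exact permutation p = 0.95), and -0.134 without FR2 (exact permutation p = 0.38). The side-by-sex difference was 0.459 points (exact permutation p = 0.345), and 0.700 without ML1 and FL1 (exact permutation p = 0.2). In FR2, 61 of 82 mural-marker nuclei held a UMI of the skeletal muscle gene Ttn, at 5231 CPM, against 0 to 212 CPM in other pools, and its other nuclei held 2233 CPM. The part of muscle RNA in FR2's share was not tested.

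**Figure D4:**
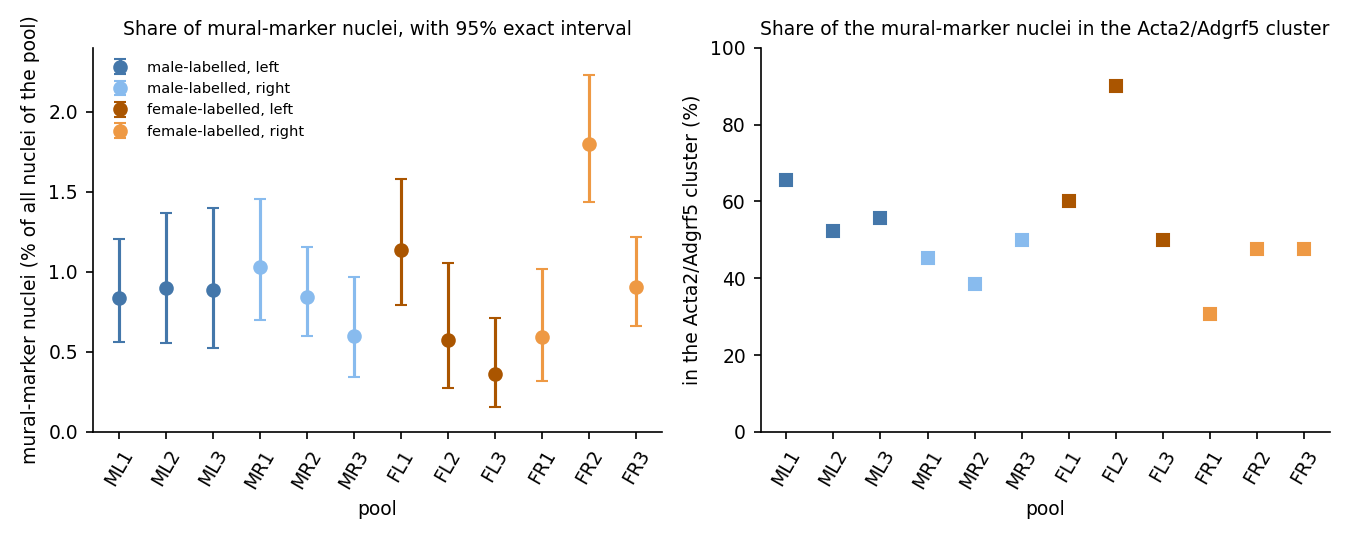
For each of 12 pools, coloured by sex label and side, the share of nuclei that met the mural-marker rule (percent, exact 95% binomial interval) and the share of those in the Acta2/Adgrf5 cluster (percent). FR2 stands at 1.80% and FL3 at 0.363% in the first panel, and in the second the left pools run from 50% to 90% and the right pools from 30.8% to 50%.

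The makeup of the mural-marker nuclei did differ by side before adjustment. Of each pool's mural-marker nuclei, the share in the Acta2/Adgrf5 cluster was 65.5%, 52.4% and 55.6% in ML1 to ML3 and 60%, 90% and 50% in FL1 to FL3. It was 45.2%, 38.5% and 50% in MR1 to MR3 and 30.8%, 47.6% and 47.7% in FR1 to FR3. Each left pool was at or above each right one, FL3 and MR3 both being at 50%. Left pools averaged 62.2% ± 14.7 and right pools 43.3% ± 7.30 (SD over 6 pools a side), so right minus left was -19.0 percentage points. The exact permutation p was 0.005, the smallest the design allows, and 0.055 after Benjamini-Hochberg adjustment over 11 measures. A lone measure at that smallest p cannot fall under 0.05 over 11 measures, however large its difference. The adjustment therefore cannot decide here, and the difference is not called. Without ML1 and FL1 the difference was -18.7 points (exact permutation p = 0.01), and without FL2, where it rests on 10 nuclei, -13.4 (exact permutation p = 0.005). By sex label the difference was 3.16 points (exact permutation p = 0.725), and 4.90 without ML1 and FL1 (exact permutation p = 0.717).

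Gene levels within mural-marker nuclei were compared over 11 pools with at least 10 of them (FL3 was left out). Over 3192 genes, edgeR's quasi-likelihood test called 0 by side, 0 by sex label and 0 for the interaction, which is 0% of those tested, at a Benjamini-Hochberg adjusted p under 0.05. At an unadjusted p under 0.05 it found 118, 128 and 108, and DESeq2 called 0 in each. Without ML1 and FL1 edgeR also called 0 in each, over 2482 genes, with 97, 127 and 91 at an unadjusted p under 0.05. On counts simulated with the mean levels and depths of these pools, the test by side recovered 62.5% of genes changed 2-fold and 96.9% changed 4-fold. The simulation fixed the dispersion at 0.05 and changed only genes averaging at least 10 UMIs per pool. It therefore does not give the recovery for sparser or more variable genes. Differences may have gone undetected at this depth.

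The smallest p by side belonged to Stxbp5l, a regulator of vesicle release. It stood at 44.9, 87.9 and 0 CPM in ML1 to ML3 and 84.5 and 50.8 in FL1 and FL2, against 175, 149 and 242 in MR1 to MR3 and 111, 143 and 148 in FR1 to FR3. Right and left pools did not overlap, but the log2 difference of 1.40 ± 0.36 (SE) had an edgeR adjusted p of 1.00. By sex label the smallest p belonged to Cdh19, a cadherin of glia, at 118 to 368 CPM in male-labelled and 323 to 955 CPM in female-labelled pools, which overlapped (1.11 ± 0.29, edgeR adjusted p = 0.999). For the interaction it belonged to Nwd2, with log2 -2.02 ± 0.47 (edgeR adjusted p = 0.744).

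Mural-marker nuclei were next set against 199 endothelial-type nuclei, in 10 pools with 10 or more of each (FL2 and FL3 left out). Endothelial-type nuclei had at least 2 of Pecam1, Cdh5 and Emcn and 0 UMIs of Notch3 and Abcc9. They also had at most 2 UMIs of Scn10a and Slc17a6 together. Of 1180 genes, edgeR called 104 higher in mural-marker nuclei (8.81%) and 122 lower (10.3%). The rules set the 2 classes apart on their own genes, which were not tested, and genes that travel with those genes follow in part. The count of 226 was 120 of 1179 genes without ML1 and FL1 and 136 of 1027 without FR3. It was 100 of 638 with 0 neuronal UMIs allowed (6 pools) and 93 of 933 with 0 fibroblast genes allowed (8 pools). That last limit was set for mural-marker nuclei only. The genes tested differed between settings, so the counts alone cannot be compared. Among pericyte markers 1 of 1 tested was called higher (Cald1) and among contractile genes 1 of 3 (Myh11).

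Cald1 stood at 489 to 917 CPM in mural-marker nuclei (median 848) and 187 to 799 CPM (median 542) in endothelial-type nuclei. It was higher in 10 of 10 pools although the ranges overlapped, with a log2 difference of 0.62 ± 0.18 (SE, edgeR adjusted p = 0.0164). Myh11 stood at 203 to 1196 CPM (median 501) against 33.5 to 1042 CPM (median 188), higher in 8 of 10 pools (log2 0.87 ± 0.29, edgeR adjusted p = 0.0337). Myh11 therefore overlapped widely, with a high level in some endothelial-type pools too. The call of Cald1 was lost without ML1 (edgeR adjusted p = 0.0609), without ML1 and FL1 together (0.164) and with 0 neuronal UMIs allowed (0.0618, at log2 0.78 over 6 pools). That of Myh11 was lost without any 1 of 6 pools, ML1 to ML3, MR2, MR3 and FR1 (edgeR adjusted p 0.065 to 0.156). The Myh11 call was also lost with no replicate block (edgeR adjusted p = 0.193) and with 0 neuronal UMIs allowed (0.352, at log2 0.67). Cacna1c, the L-type calcium channel pore, was higher by log2 0.61 ± 0.18 (edgeR adjusted p = 0.0172), and lost its call without ML1, without ML2 and without ML1 and FL1 together (0.0536 to 0.0589 with 1 pool left out, 0.0505 with both). Collagen Col5a3 was higher in 10 of 10 pools (log2 0.84 ± 0.19). It was not called with 0 neuronal UMIs (log2 0.82, edgeR adjusted p = 0.0737) or 0 fibroblast genes allowed (log2 0.68, edgeR adjusted p = 0.0661). Its difference was 0.12 in Acta2/Adgrf5 cluster nuclei alone (edgeR adjusted p = 0.844).

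Most of the genes with the largest differences over endothelial-type nuclei lie outside the mural lists. Col25a1, a membrane collagen, stood at 105 to 392 CPM against 0 to 234 (log2 1.45 ± 0.28, edgeR adjusted p = 0.000364), higher in 10 of 10 pools. Shank2, a synaptic scaffold, averaged 763 against 320 CPM, and Adgrb3, a synaptic adhesion receptor, 3009 against 1353. Apoe, the lipid carrier of satellite glia, stood at 943 ± 318 against 381 ± 193 CPM (SD, n = 10 pools), higher in 9 of them, and 3 of 8 neuronal genes (Snap25, Nefl and Nefm) were called higher, Snap25 not without any 1 of 7 pools (edgeR adjusted p 0.0517 to 0.132). With 0 neuronal UMIs allowed, over 6 pools and 638 genes, Nefl and Nefm were not called, at log2 differences of 0.89 and 0.87. With 0 fibroblast genes allowed they were not called either, at 0.65 and 0.69 over 8 pools. The lost calls thus do not mean that the differences vanished. Fatty acid desaturase Scd2 averaged 1443 against 660 CPM. The part of neuronal and glial transcripts in this comparison was not tested.

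Lower in mural-marker nuclei were endothelial genes. Mecom, a transcription factor gene of endothelium, stood at 155 to 607 CPM against 803 to 2713 (log2 -2.06 ± 0.20, edgeR adjusted p = 6.74e-08), with no overlap. Ptprb, the endothelial phosphatase VE-PTP, averaged 221 against 937 CPM and Adgrl4, an endothelial adhesion receptor, 164 against 608, which made 2 of 2 tested genes of the endothelial list. Of mural transcription factors 3 of 4 tested were called lower: Epas1 (log2 -0.65 ± 0.19), Ebf1 (-0.67 ± 0.16) and Mef2c (-0.78 ± 0.19). Pdgfd (-0.74 ± 0.22), Tgfbr2 (-0.92 ± 0.21) and the calcium store channel Itpr1 (-1.37 ± 0.20) were also lower. Epas1 lost its call without ML3 or FR3 (edgeR adjusted p 0.0569 and 0.0625), without ML1 and FL1 together (0.0769), and with 0 neuronal UMIs (0.314) or 0 fibroblast genes allowed (0.136). Pdgfd lost it without ML1 or FR3 (0.0584 and 0.0686), without ML1 and FL1 together (0.117), under DESeq2 (0.0516), and with 0 neuronal UMIs (0.24) or 0 fibroblast genes (0.31). With 0 fibroblast genes allowed Ebf1 and Mef2c were not called either (0.137 and 0.126), nor were Ebf1, Mef2c, Epas1 and Pdgfd with no low-count filter (0.0865, 0.211, 0.379 and 0.255).

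When only mural-marker nuclei in the Acta2/Adgrf5 cluster were kept, an alternative chosen after seeing the data, 65 genes were called (43 higher, 22 lower) in 8 pools over 937 genes, and 21 of them were among the earlier 226. The log2 difference became 2.21 for Myh11, 1.67 for Cald1 and 1.65 for Cacna1c, all still called. It became 0.32 for Apoe, 0.38 for Shank2, 0.34 for Adgrb3, -0.69 for Mecom and -0.55 for Ptprb, none of them called. Epas1 turned to 0.29, Mef2c to 0.21, Ebf1 to 0.26, and Snap25 to -0.18. The cluster was formed on 3000 variable genes and picked by the level of the rule markers, so these values are a description.

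Fibroblast-type nuclei gave the clearer contrast for contractile genes, but the 2 contrasts are not alike. The fibroblast-type rule demanded 0 UMIs of Rgs5 as well, which the endothelial-type rule did not. Genes that travel with rule genes follow in part here too, and how much was not tested. The 607 fibroblast-type nuclei had at least 2 of Pdgfra, Dcn, Col1a1 and Lum, and 0 UMIs of Pecam1, Cdh5, Notch3, Abcc9 and Rgs5. They also had at most 2 UMIs of Scn10a and Slc17a6 together. Over 11 pools and 2813 genes, edgeR called 178 higher in mural-marker nuclei (6.33%) and 237 lower (8.43%). When only mural-marker nuclei of the Acta2/Adgrf5 cluster were kept it called 734 in all, of 1836 genes in 8 pools. Of contractile genes 4 of 5 tested were called higher: Acta2, Myh11, Synpo2 and Tpm1.

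Acta2 stood at 92.1 to 330 CPM (median 157) in mural-marker nuclei and 0 to 12.1 CPM (median 0) in fibroblast-type nuclei. The ranges were far apart (log2 6.09 ± 0.36, SE, edgeR adjusted p = 1.29e-13), a size that depends on the prior count because most fibroblast-type pools were at 0. Myh11 stood at 203 to 1347 CPM (median 566) against 16.1 to 67.7 CPM (median 27.7), again without overlap (log2 4.24 ± 0.21, edgeR adjusted p = 1.77e-15). Synpo2, an actin-bundling protein, and tropomyosin Tpm1 were higher by log2 2.41 ± 0.22 and 1.28 ± 0.14 in 11 of 11 pools.

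Of ion channels of vascular tone 7 of 10 tested were called higher and 0 lower, among them Cacnb2 (370 ± 122 against 59.3 ± 28.3 CPM, SD over 11 pools) and Cacna1c (902 ± 308 against 298 ± 72.7). Of the cyclic nucleotide signalling list 7 of 18 were called higher, with Irag1 at log2 3.84 ± 0.29 and Pde3a at 2.60 ± 0.20, and 1 lower (Pde1c, -0.86 ± 0.20). Of the 7, Rgs4 was not called under DESeq2 (adjusted p = 0.0518), and Ppp1r12a not without FL2 (edgeR adjusted p = 0.06) or with 0 neuronal UMIs (0.13). Of transcription factors 4 of 6 were called higher, Rbpms (log2 1.42 ± 0.20), Mef2c (1.36 ± 0.17), Epas1 (1.29 ± 0.14) and Ebf1. Jag1 (log2 0.58 ± 0.15), Itga1 (0.82 ± 0.15) and Cald1 (1.22 ± 0.11) were higher, and the barrier genes Slco1a4 and Abcg2 by log2 3.35 and 3.06. Endothelial Mecom, at 155 to 607 against 25.4 to 90.9 CPM, was higher too.

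Of basement membrane and matrix genes 6 of 14 were called lower (Nid2, Lamc1, Lamb1, Lama2, Col3a1 and Fn1) and 1 higher (Itga1). The call of fibronectin, Fn1, was lost without any 1 of 5 pools, ML2, ML3, MR1, MR2 and FL2 (edgeR adjusted p 0.0633 to 0.124), and under DESeq2 (0.103), and that of nidogen, Nid2, under DESeq2 (0.0859). Collagen Col3a1 stood at 290 ± 90.5 against 540.5 ± 145 CPM and laminin Lama2 at 1429 ± 478 against 2385 ± 339 (SD over 11 pools), lower in 11 of 11 pools. All 4 tested genes of the fibroblast list were called lower, as were all 4 tested of the myelinating Schwann cell list, with the myelin protein gene Prx at 128 ± 91.2 against 388 ± 59.2 CPM (SD over 11 pools). The summed list stood at 6077 CPM in fibroblast-type nuclei, which as picked by rule thus held much myelin transcript, whose part in the contrast was not tested.

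**Figure D5:**
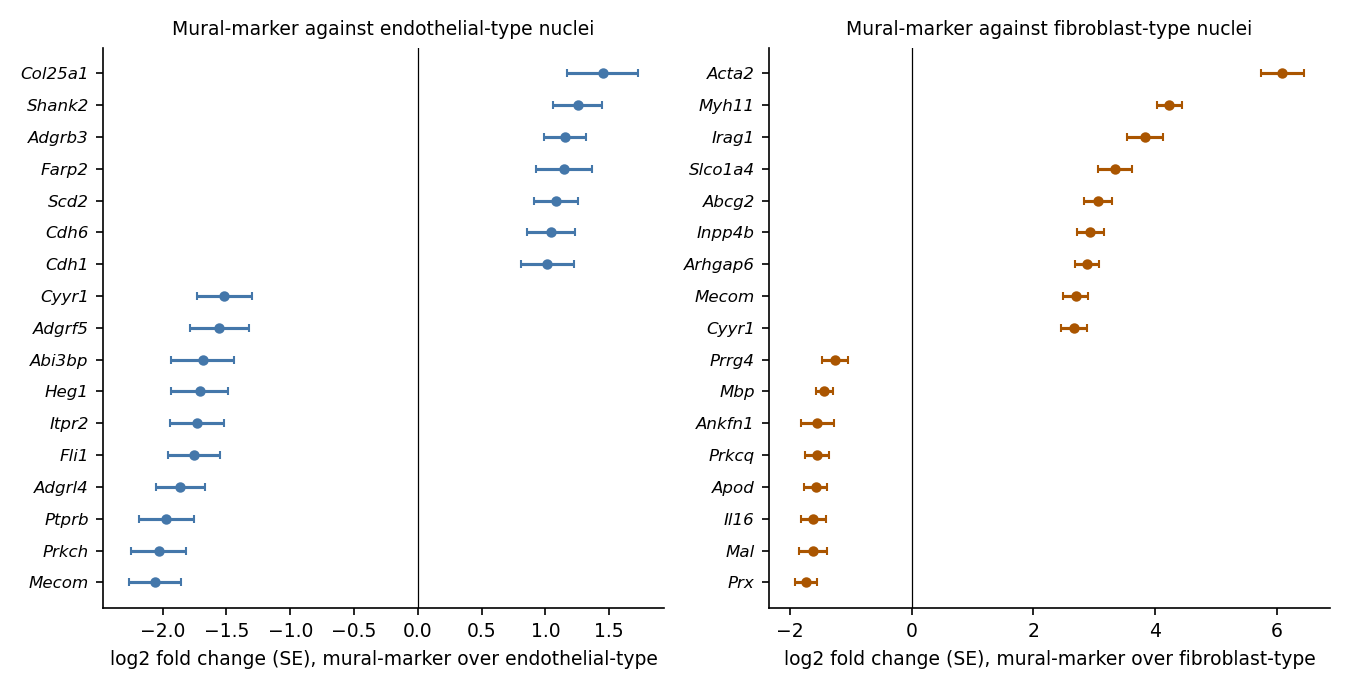
Log2 difference of mural-marker nuclei over endothelial-type nuclei (first panel) and over fibroblast-type nuclei (second panel) for the reported genes among the called genes with the largest change in each direction, with bars of 1 standard error from edgeR. Mecom stands at -2.06 against endothelial-type nuclei, and Acta2 at 6.09 and Myh11 at 4.24 against fibroblast-type nuclei.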

How the data were processed

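Single-nucleus libraries were made with Evercode version 2 kits and sequenced on a NextSeq 2000, per the labels' protocols. The authors deposited raw UMI counts per nucleus and gene, whose sums equalled the deposited transcript count in all 36741 nuclei. The submitters' processing notes name R 4.3.2, Seurat 4.1.3 and mRatBN7.2, with no roles. For the aligner and the barcode filter, the method is not given in the sources used here. Pools came from the nucleus table. Counts were summed per pool and class where at least 10 nuclei were present, and tested with edgeR 4.0.16 (quasi-likelihood, TMM, filterByExpr, pool as a block between classes); DESeq2 1.42.0 was an alternative. Shares were tested by exact permutation within the other factor (400 relabellings). Clustering used scanpy 1.11.5 (3000 genes, 30 components, 20 neighbours, Leiden resolution 1.5). No doublet caller was run. P-values by side and sex label measure the spread between pools. Those between classes measure the spread, over pools, of the class difference within a pool. Genes were named as the 10 called with the largest change each way between classes that moved alike in every pool with a mean of 50 CPM or more, the 3 of smallest p by side, sex and interaction, called list genes, and the 20 leading genes of the description. The members and lists were chosen with earlier results of these data known. Some genes are not reported here.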

Additional observations from a re-analysis of the deposited data

Results flagged for a closer look

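In groups of 4 to 10 pools, 184 in all, a pool was picked out when its gap to the nearest other pool was large for the range of the group (Dixon's 95% value), which chance does in about 1 of 20 groups. FR2 stood apart among right pools for the share of mural-marker nuclei (1.80%). The skeletal muscle genes Ttn (5231 CPM among right and among female-labelled pools) and Neb (978 CPM among right pools) were also highest in FR2.

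Within mural-marker nuclei, FL2, the pool of 10 such nuclei, stood apart for Acta2 (330 CPM, left and female-labelled) and Emcn (229 CPM, female-labelled). FL1 stood apart for Kcnj8 (30.7 CPM, left and female-labelled, from 4 UMIs) and Ntng1 (199.8 CPM, left). FR1 did for Abca8a (3020 CPM), Itpr1 (66.6 CPM) and Cald1 (489 CPM, lowest of the right pools). ML2 did for Apoe (211 CPM, lowest), Cacna1c (1670 CPM) and Cald1 (545 CPM, lowest of the male-labelled pools). MR2 was high for Myh11 (1196 CPM) over the 10 pools of the endothelial comparison and among right pools. Among right pools P2rx2 stood apart in MR3 (217 CPM), and among male-labelled pools Nwd2 in MR1 (562 CPM) and Ralgps1 in ML3 (256 CPM).

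In endothelial-type nuclei Ebf1 was highest in FR1 (4223 CPM) and Nefl stood apart in MR1 (889 CPM).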

How the results depend on the processing

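The share by side kept a small positive difference in most settings, turning to -0.0304 points with 3 or more markers and -0.0558 with only Acta2/Adgrf5 cluster nuclei, and ran from 0.0113 to 0.252 with 1 pool left out. By sex label it ran from -0.134 to 0.154, and was -0.00348 without ML1 and FL1. Left and right pools of the same replicate number were not clearly alike (correlations of deviations -0.133 to 0.162). The correlation was highest with the own number for male-labelled replicates 1 and 2, and not for the others compared. Replicate 1 involves ML1 and FL1, which go against their labels, so whether the numbers pair the pools cannot be told. With a replicate block the share by side stayed at 0.179 points (exact permutation p = 0.594). The replicate block gave 0 genes by side and 1 for the interaction (Adarb2). With only cluster nuclei, 2 genes were called by side (Akap12 and Ttn), and Cdh19 and Lrp1b by sex label turned to -0.18 and 0.60. With no low-count filter 5 genes were called by side (Ttn, Neb, Myh4, Tnnt3 and U4), 14 by sex label and 2 for the interaction (Ttn and Eif2s3y).

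Against endothelial-type nuclei, 226 calls of 1180 genes tested became 100 of 638 with 0 neuronal UMIs allowed and 93 of 933 with 0 fibroblast genes. They became 65 of 937 with only cluster nuclei, 120 of 1179 without ML1 and FL1 and 459 of 16202 with no low-count filter. They ran from 136 (without FR3) to 246 with 1 pool left out, and were 206 with no replicate block and 190 with DESeq2. With only cluster nuclei Slco1a4 (0.19), Nefm (-0.17), Nefl (-0.0904), Ebf1 (0.26), Mef2c (0.21), Epas1 (0.29) and Snap25 (-0.18) turned sign. Against fibroblast-type nuclei, 415 calls of 2813 genes became 734 of 1836 with only cluster nuclei and 691 of 17363 with no low-count filter. Calls ran from 358 to 450 with 1 pool left out, and were 395 with no replicate block and 329 with DESeq2. Of settings for named genes, 601 of 710 kept direction and call against endothelial-type nuclei and 1188 of 1257 against fibroblast-type. However, 7 of 40 genes held in every setting against endothelial-type nuclei and 53 of 65 against fibroblast-type, and with only cluster nuclei 21 of the 40 lost their call and 7 turned sign. The cause of these changes was not tested. Gene tests with 3 or more markers were not run, since too few pools held 10 such nuclei. Most markers rest on 1 UMI per nucleus, so single nuclei are uncertain.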
